A study of Caenorhabditis elegans with 8 samples.

Results

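The 10 genes described here make and desaturate fatty acids in Caenorhabditis elegans: the transcription factor gene sbp-1, the synthesis genes pod-2 and fasn-1, and the desaturase genes fat-1 to fat-7. They were taken by gene symbol, with the brightest probe standing for a gene, from 26128 genes that a probe names alone. Each of the 10 had exactly 1 probe, so no choice between probes was made. RNA came from whole synchronized populations of wild type N2 Bristol worms, with no transgene or other intervention, grown at 20 °C on OP50 E. coli. Day 1 and day 6 of adulthood have 3 samples each, and day 12 has 2. Affymetrix C. elegans Gene 1.1 ST arrays were used, 1 per sample, and a level below is the deposited signal on a log2 scale, where a step of 1 is a doubling of signal. The replicates are called biological in the labels, but nothing says that they were separate cultures. The p-values therefore set differences between days against the spread between samples, which may not be that between cultures.

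The pathway starts with acetyl-CoA carboxylase, which makes malonyl-CoA, and fatty acid synthase, which builds the saturated fatty acid palmitate from it. Delta-9 desaturases then place the first double bond, giving palmitoleic acid or, after elongation, oleic acid. C. elegans, unlike mammals, carries its own delta-12 and omega-3 desaturases, and so makes linoleic acid and the longer polyunsaturated fatty acids without needing them in the diet. SBP-1, the worm homologue of mammalian SREBP, is known to be needed for the expression of synthesis and delta-9 desaturase genes, and intestine and epidermis are the main sites of this pathway. In the RefSeq annotation of assembly WBcel235, fat-1 and fat-2 are neighbouring coding genes on chromosome IV, as are fat-3 and fat-4. The fat-6 gene is elsewhere on chromosome IV, fat-5 and fat-7 are apart on chromosome V, and sbp-1, pod-2 and fasn-1 are on chromosomes III, II and I.

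Array medians were 2.32 to 2.40, and Pearson's r across probes was at least 0.984 within a day and 0.941 to 0.952 for day 12 with day 1. A mean under 3 is called dim here and held for 63.2% of probes, and all 10 genes lay above 3 on every array. Markers of intestine, germline and oocytes were above this level, while 4 of 12 hypodermis and cuticle markers, including the collagen genes dpy-7 and rol-6, and 8 of 9 measured sperm markers had means under it. Batches are not labelled, and any batch in step with the days and age itself cannot be told apart.

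Among the 10 genes the largest difference between day 12 and day 1 was in fat-7, a gene of the delta-9 step. The stearoyl-CoA desaturase genes fat-7 and fat-6 were lower at day 12 than at day 1 and at day 6, the synthase gene fasn-1 was higher at day 12, and the polyunsaturated fatty acid desaturase genes fat-1, fat-2, fat-3 and fat-4 passed the test in no comparison. A linear model over all 8 arrays (limma, two-sided) was used, and a call was a Benjamini-Hochberg adjusted p under 0.05 over 26761 probes. At day 12 against day 1, 3 of the 10 genes were called, 1 higher and 2 lower, where 14.1% of all probes were called, 9.58% higher and 4.52% lower. The genes are bright, and among the 11117 probes with a day mean above 3 the called share was 31.4%, 21.4% higher and 10% lower. Day 12 against day 6 gave the same 3 genes in the same directions, against 9.05% of all probes (6.36% higher, 2.69% lower) and 20.4% of the brighter ones. At day 6 against day 1, 0 of the 10 were called by limma, against 3.85% of all probes (2.18% higher, 1.66% lower) and 8.92% of the brighter ones. Every array of one day lay beyond every array of the other for 4 of the 10 genes at day 12 against day 1, where this held for 38.5% of all probes and 57.5% of the brighter ones. The count was 4 at day 6 against day 1 (23.2% and 41.1%) and 7 at day 12 against day 6 (38.1% and 56.4%).

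**Figure D1:**
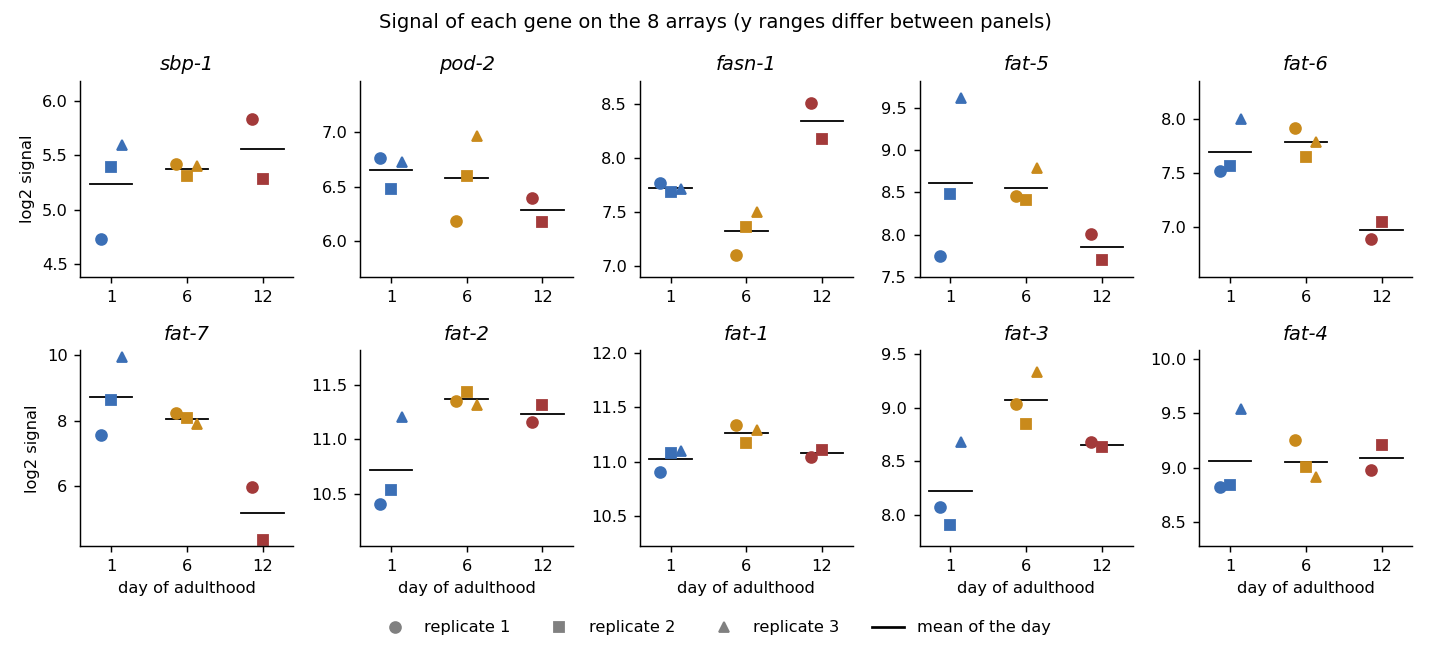
Log2 signal (y axis) of each gene on every array by day of adulthood (x axis), where symbols give the replicate number and a line the mean of the day. The day 12 arrays lie lowest for fat-6 and fat-7 and highest for fasn-1, and day 1 replicate 3 is the highest day 1 array in 8 of the 10 panels.

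Whole animals were sampled, so fewer cells of a type and less RNA per cell cannot be told apart. The fat-7 gene encodes a stearoyl-CoA delta-9 desaturase, which makes oleic acid. Its log2 signal was 7.56, 8.63 and 9.96 in replicates 1 to 3 at day 1, 8.22, 8.07 and 7.90 at day 6, and 5.98 and 4.35 in the 2 arrays of day 12. Both day 12 arrays were below every other array, while the day 6 arrays lay within the range of day 1. The mean was 5.16 ± 1.15 at day 12 (SD, n = 2) against 8.71 ± 1.20 at day 1 (n = 3), an 11.7-fold lower signal (log2 difference -3.55 ± 0.61 SE, 95% interval -4.90 to -2.20; limma adjusted p = 0.00272). This call was kept in all 18 alternative fits, with differences of -4.36 to -2.74. In 2 of the 18 a day 12 array is left out, and the lone one is assumed to vary like the arrays of the other days, while averaging a gene's probes cannot move the difference of a gene with 1 probe. Against day 6, where the mean was 8.07 ± 0.16 (n = 3), day 12 was 7.47-fold lower (log2 difference -2.90 ± 0.61; limma adjusted p = 0.0131). That call was lost without day 12 replicate 2, where the difference was -2.09 (adjusted p = 0.164), and with an intensity trend and robust hyperparameters in the fit (adjusted p = 0.0868). The 2 day 12 arrays differed by more than the spread of most genes: the SD of 1.15 was above that of 99.56% of the brighter probes on the same arrays, whose median SD was 0.18.

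The fat-6 gene encodes the other stearoyl-CoA desaturase, a close copy of FAT-7 with overlapping function. Its arrays gave 7.52, 7.56 and 7.99 at day 1, 7.91, 7.65 and 7.78 at day 6, and 6.90 and 7.05 at day 12, so that here too the day 12 arrays were below all others. The fall at day 12 was smaller than in fat-7, 1.65-fold against day 1 (log2 difference -0.72 ± 0.18; limma adjusted p = 0.0248) and 1.75-fold against day 6 (-0.81 ± 0.18; adjusted p = 0.0194). The call against day 1 was lost without day 1 replicate 3 (adjusted p = 0.0589), day 12 replicate 1 (0.148) or day 12 replicate 2 (0.0806). The call against day 6 was lost without day 6 replicate 1 (0.069), day 6 replicate 3 (0.0597), day 12 replicate 1 (0.122) or day 12 replicate 2 (0.0791). Probe sequences were not used here, so how well the probes separate fat-6 from fat-7 was not tested.

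The fat-5 gene encodes the palmitoyl-CoA delta-9 desaturase, which makes palmitoleic acid. Its signal was 7.75, 8.48 and 9.62 at day 1, 8.46, 8.41 and 8.78 at day 6, and 8.01 and 7.70 at day 12. Both day 12 arrays lay below all day 6 arrays, while day 12 overlapped with the wide range of day 1. The differences were -0.76 ± 0.42 at day 12 against day 1 (95% interval -1.69 to 0.17; limma adjusted p = 0.314) and -0.70 ± 0.42 against day 6 (-1.63 to 0.24; adjusted p = 0.426), and neither was called. Without day 1 replicate 1, the lowest day 1 array, day 12 against day 1 was called, at -1.19 (adjusted p = 0.0481).

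Whether the 3 delta-9 desaturase genes fell alike was tested on the log2 difference between 2 genes within each array, by an exact permutation test over the 3 days (560 assignments of arrays to days), with p-values adjusted over the 6 enzyme pairs tested. Such a difference shows unequal change with age, and is no measure of which transcript is more abundant. The fat-7 minus fat-5 difference averaged 0.10 ± 0.27 at day 1 (SD, n = 3), -0.48 ± 0.35 at day 6 (n = 3) and -2.69 ± 0.93 at day 12 (n = 2), with no overlap between day 12 and the other days (exact p = 0.0036, the smallest this test can give; adjusted p = 0.0107). For fat-7 minus fat-6 the averages were 1.02 ± 0.96, 0.28 ± 0.16 and -1.81 ± 1.26 in the same order of days (exact p = 0.0143; adjusted p = 0.0214). The fat-6 minus fat-5 difference stayed close to its day 1 mean of -0.92 ± 0.70, at -0.77 ± 0.23 at day 6 and -0.88 ± 0.33 at day 12 (exact p = 0.907; adjusted p = 0.907). This p does not show that fat-6 and fat-5 changed alike. With 1 array left out the smallest possible p is 0.0095 or 0.0143, and adjusted p was 0.0286 to 0.0571 for fat-7 and fat-5 and 0.0286 to 0.236 for fat-7 and fat-6. The fat-7 and fat-5 call was lost without day 1 replicate 2 or 3, and the fat-7 and fat-6 call in each of the fits but that without day 1 replicate 1.

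**Figure D2:**
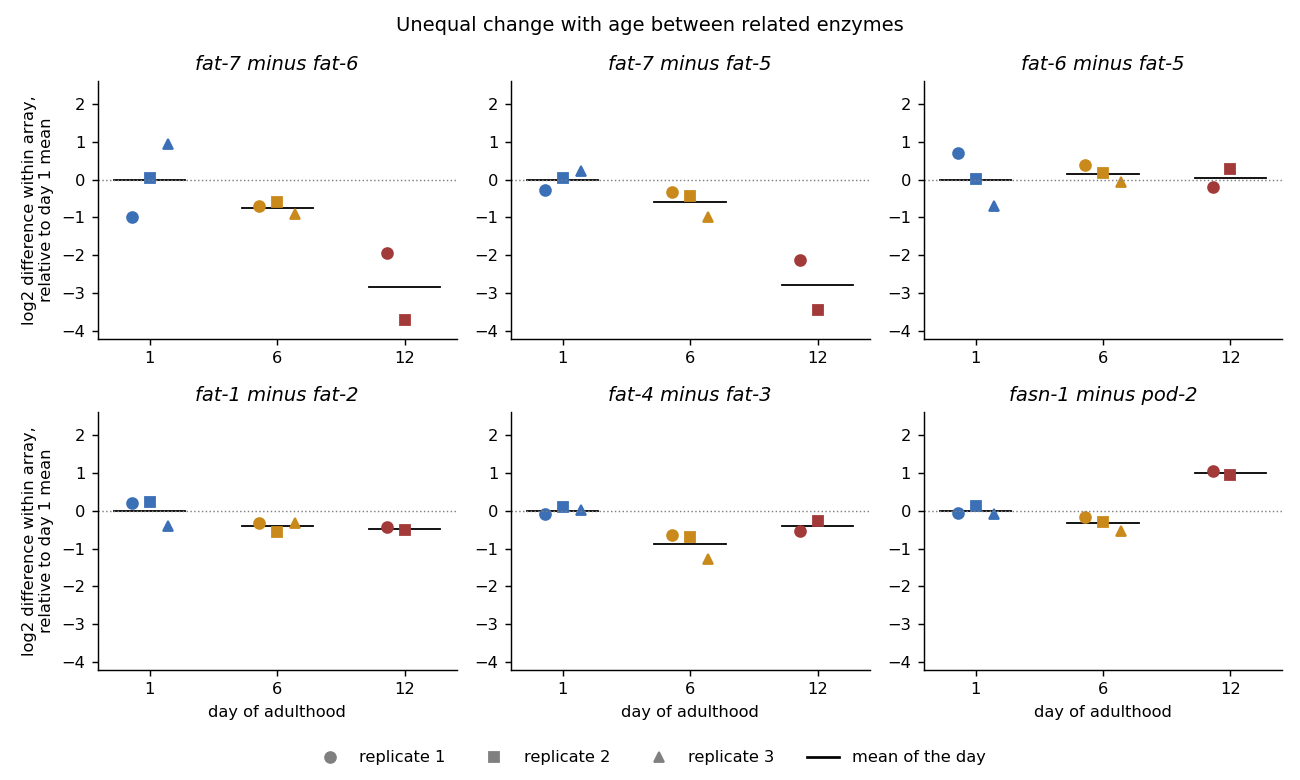
Log2 difference between 2 enzyme genes within each array, relative to its day 1 mean (y axis), by day of adulthood (x axis), where symbols give the replicate number and a line the mean of the day. The fat-7 panels have day 12 means of -2.83 (against fat-6) and -2.79 (against fat-5) relative to day 1, the fat-6 and fat-5 panel stays near 0, and fasn-1 minus pod-2 is 1.00 higher at day 12.

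At the head of the pathway the 2 synthesis genes did not move together. The fasn-1 gene, which encodes fatty acid synthase, had 7.77, 7.69 and 7.71 at day 1, 7.10, 7.36 and 7.50 at day 6, and 8.52 and 8.18 at day 12, and the arrays of no 2 days overlapped. Signal at day 12 was 2.04-fold higher than at day 6 (log2 difference 1.03 ± 0.17; limma adjusted p = 0.00375), a call kept in all 18 alternative fits, with differences of 0.86 to 1.19. Against day 1 it was 1.54-fold higher (0.63 ± 0.17; adjusted p = 0.0373). That call was lost in 10 of 18 alternatives. Quantile normalization (adjusted p = 0.0719) and cyclic loess (0.0698) were among them, while median centring kept the call. It was also lost in each fit without 1 of the day 1 arrays and without day 6 replicate 2, with adjusted p of 0.0594 to 0.0872. Another was the fit without day 12 replicate 1, where the difference was 0.46. Day 6 against day 1 gave -0.40 ± 0.16 and was not called (95% interval -0.75 to -0.06; adjusted p = 0.220).

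The change after day 6 was tested against the change before it, and among the 10 genes this contrast was called for fasn-1 only. The contrast of the second interval minus the first was 1.43 ± 0.28 (limma adjusted p = 0.0212), where 3.46% of all probes (2.22% higher, 1.24% lower) and 8.01% of the brighter ones were called. Without day 6 replicate 1 (adjusted p = 0.111), day 6 replicate 2 (0.0711) or day 12 replicate 1 (0.0589) this was no longer called.

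The pod-2 gene encodes acetyl-CoA carboxylase, which supplies malonyl-CoA to the synthase. It had 6.76, 6.48 and 6.72 at day 1, 6.19, 6.60 and 6.97 at day 6, and 6.40 and 6.18 at day 12. Day 12 was below day 1 on both arrays, but the difference of -0.37 ± 0.22 was not called (95% interval -0.86 to 0.12; limma adjusted p = 0.360). The fasn-1 minus pod-2 difference averaged 1.07 ± 0.12 at day 1, 0.74 ± 0.19 at day 6 and 2.06 ± 0.08 at day 12 (SD, n = 3, 3 and 2), so the 2 genes changed unequally with age (exact permutation p = 0.0036; adjusted p = 0.0107). With an array left out the adjusted p was 0.0286 to 0.0571, and the call was lost without day 1 replicate 2 or 3.

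The sbp-1 gene, the regulator of both steps, was not called in any comparison. Its signal was 4.73, 5.39 and 5.60 at day 1, 5.42, 5.31 and 5.40 at day 6, and 5.83 and 5.28 at day 12. The day 6 and day 12 arrays overlapped with day 1, and the difference at day 12 against day 1 was 0.32 ± 0.26 (95% interval -0.25 to 0.89; limma adjusted p = 0.515). Transcript level says nothing of how much SBP-1 protein is processed or nuclear.

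**Figure D3:**
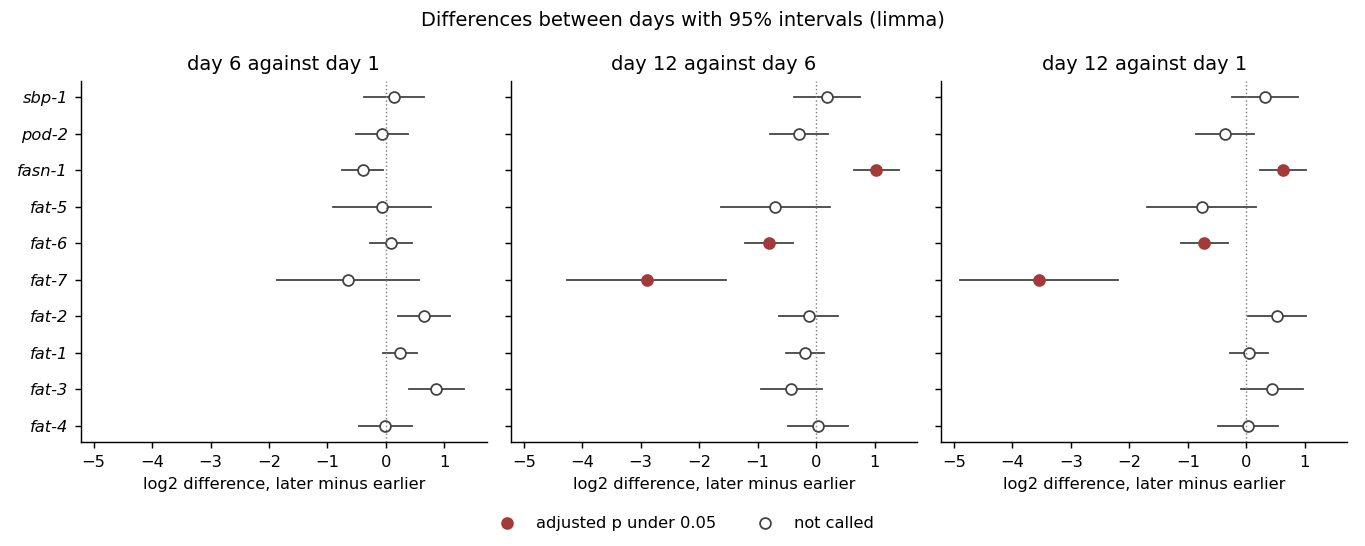
Log2 difference, later day minus earlier day (x axis), for each gene (y axis) in the 3 comparisons, with 95% intervals from limma and filled points for an adjusted p under 0.05. Filled points are fasn-1 above 0 and fat-6 and fat-7 below 0 in both comparisons with day 12, and no point is filled at day 6 against day 1.

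In the polyunsaturated branch, fat-1, fat-2 and fat-3 had their highest mean at day 6, and none of the 4 genes was called in a comparison. The fat-2 gene encodes the delta-12 desaturase, which turns oleic into linoleic acid, and had 10.40, 10.54 and 11.20 at day 1, 11.35, 11.43 and 11.32 at day 6, and 11.16 and 11.32 at day 12. All day 6 arrays were above all day 1 arrays, with a log2 difference of 0.65 ± 0.20 that was not called (95% interval 0.21 to 1.10; limma adjusted p = 0.118). Without day 1 replicate 3 it was called at day 6 (0.90, adjusted p = 0.0168) and at day 12 (0.77, adjusted p = 0.0125) against day 1.

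The fat-3 gene encodes the delta-6 desaturase, the next enzyme of the branch. Its arrays gave 8.07, 7.90 and 8.68 at day 1, 9.04, 8.85 and 9.34 at day 6, and 8.68 and 8.63 at day 12. Day 6 lay above both other days with no overlap, at 1.81-fold the day 1 signal (log2 difference 0.86 ± 0.21), just short of a call (limma adjusted p = 0.0551). It was called in 4 of 18 alternatives, among them without day 1 replicate 3 (1.09, adjusted p = 0.0166) and after dim probes were left out (adjusted p = 0.0346). Its second interval minus its first was -1.28 ± 0.38 and was not called (adjusted p = 0.113), but was without day 1 replicate 3 (-1.51, adjusted p = 0.0267).

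The fat-1 gene encodes the omega-3 desaturase and varied little, with 10.91, 11.08 and 11.10 at day 1, 11.34, 11.17 and 11.29 at day 6, and 11.04 and 11.11 at day 12. Its day 6 arrays were above those of both other days by small margins, 0.24 ± 0.13 over day 1 in the log2 difference (95% interval -0.05 to 0.53; limma adjusted p = 0.401). At day 12 against day 1 the 95% interval of the log2 difference was -0.28 to 0.38.

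The fat-4 gene encodes the delta-5 desaturase, which acts after FAT-3, and had 8.82, 8.84 and 9.54 at day 1, 9.25, 9.0 and 8.91 at day 6, and 8.98 and 9.21 at day 12. The days overlapped, and differences between them lay between -0.01 and 0.04, with 95% intervals inside -0.49 to 0.55. The neighbouring genes fat-4 and fat-3 changed unequally: fat-4 minus fat-3 averaged 0.85 ± 0.09 at day 1, -0.02 ± 0.35 at day 6 and 0.44 ± 0.20 at day 12 (SD, n = 3, 3 and 2; exact permutation p = 0.0071, adjusted p = 0.0143). With 1 array left out, adjusted p was 0.0286 to 0.0762, and the call was lost without any 1 of the day 1 or day 12 arrays. For the other neighbouring pair, fat-1 minus fat-2 averaged 0.31 ± 0.36, -0.10 ± 0.14 and -0.16 ± 0.06 in the same order of days, and the change was not called (exact p = 0.136; adjusted p = 0.163).

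The day 1 arrays stood wide apart in some of the 10 genes. Day 1 replicate 3 was the highest day 1 array for 8 of the 10 genes, whereas it was the highest for 43.99% of the brighter probes. Day 1 replicate 1 was the lowest for 7 of 10, against 50.22% of the brighter probes. The SD over the day 1 arrays was 1.20 for fat-7 and 0.94 for fat-5, above that of 99.59% and 98.97% of the brighter probes, whose median was 0.21. It was 0.41 to 0.45 for sbp-1, fat-2, fat-3 and fat-4, and 0.04 for fasn-1, smaller than for all but 3.42% of the brighter probes. The order of replicate 1, then 2, then 3 was also that of the list means in 6 of the 11 pathway and marker lists. The share of all probes in this order was not counted. Replicate 3 was above replicate 1 by 0.44 on the log2 scale for intestine, 0.43 for sperm, 0.32 for neurons, 0.24 for lipid assembly, 0.22 for elongation and 0.10 for precursor supply. Body wall muscle ran the other way, at -0.36, as did hypodermis and cuticle at -0.16 and germline at -0.10. Regulators, at 0.16, and oocyte and eggshell, at 0.02, were not in the order of 1, then 2, then 3. The part of any of these in the spread was not tested. At day 6 no delta-9 gene had an SD above 0.21.

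**Figure D4:**
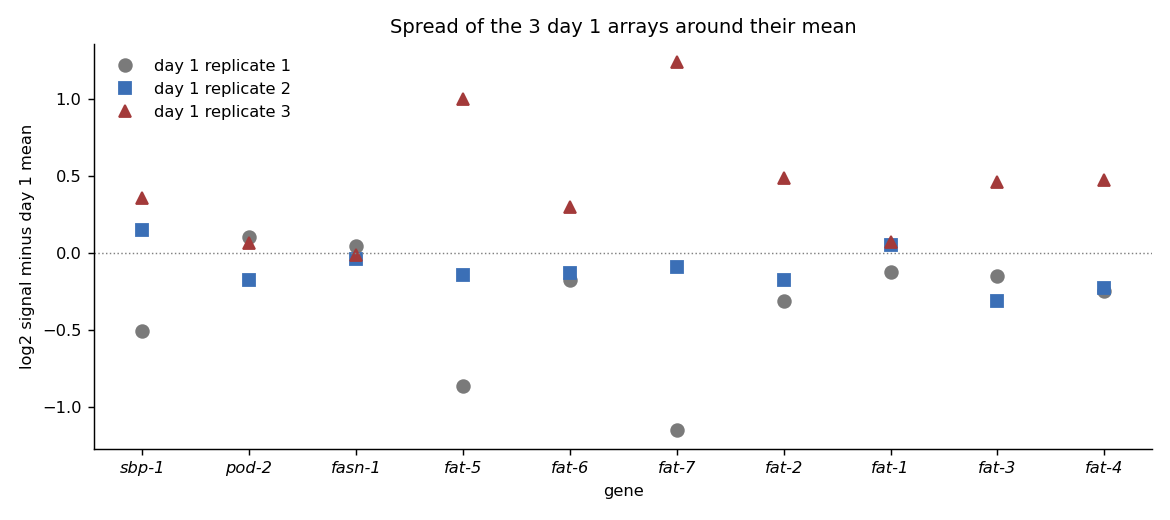
Log2 signal of each of the 3 day 1 arrays minus their mean (y axis), for each gene (x axis). Replicate 3 lies above the other arrays for all genes but pod-2 and fasn-1, by most for fat-7 and fat-5, while the 3 arrays nearly coincide for fasn-1.

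Markers of more than 1 tissue were lower on the day 12 arrays as well. At day 12 against day 1, 21.4% of the brighter probes were called higher and 10% lower. For intestine, the log2 of the signal summed over 12 markers was 12.17 to 12.39 on the day 1 arrays, 10.96 to 11.56 on the day 6 arrays and 10.83 on both day 12 arrays, and none of the 12 was dim. At day 12 against day 1, 7 of the 12 were lower (median -1.28) and 1, the metallothionein gene mtl-2, was higher, a call lost without day 12 replicate 2 (limma adjusted p = 0.109). At day 6 against day 1, where 3.86% of the brighter probes were lower, 5 of the 12 were lower, or 3 without day 6 replicate 1. Whether these markers and the delta-9 genes changed at different times was not tested. Body wall muscle markers fell further, with 8 of 10 lower at day 12 against day 1 (median -3.02) and summed log2 signals of 12.52 to 12.91 on the day 1 arrays, 10.69 to 11.76 on the day 6 arrays and 9.77 to 9.96 on the day 12 arrays. At day 6 against day 1, 5 of the 10 muscle markers were lower, a count that dropped to 1 when replicate 1 of either day was left out, to 3 for replicate 3 of either day and to 2 for day 1 replicate 2. The gene of the gut-defining GATA factor elt-2 had a difference of -0.75 ± 0.26 at day 12 against day 1 and was not called (limma adjusted p = 0.0978), but was with quantile normalization, with cyclic loess and without day 1 replicate 1. The 12 hypodermis and cuticle markers gave 4 higher (2 without day 12 replicate 1) and 2 lower, with summed log2 signals of 10.75 to 11.05 on the day 1 arrays, 10.20 to 10.54 on the day 6 arrays and 10.41 to 10.65 on the day 12 arrays. At day 12 against day 1, 1 marker was higher and 1 lower in each of the germline and oocyte lists of 10. Among 9 sperm and among 10 neuron markers, 2 were higher and 0 lower. As shares these are 10% each way for germline and oocytes, and 22.22% and 20% higher for sperm and neurons. They are close to or below those of the brighter probes, and 8 of the 9 sperm markers were dim. The part of any tissue in the desaturase levels was not tested.

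The genes around the pathway were read from 4 lists chosen with earlier results of these data known. In the elongation cycle, which lengthens the products of synthase and desaturases, 0 of 12 were higher and 8 lower at day 12 against day 1. The median log2 difference was -0.65, beside -0.01 over all probes and 0.14 over the brighter ones. Lower calls were 66.67% of the list, against 4.52% of all probes and 10% of the brighter ones. The 12 include 4 dim genes, and the 8 include elo-9, named after its values were seen, which is one of those 4. The count was 4 without day 12 replicate 1, and 5 without day 1 replicate 3 or day 12 replicate 2. All 3 non-elongase enzymes of the cycle were among the 8. The ketoacyl reductase gene let-767 (-0.89 ± 0.14; limma adjusted p = 0.00152) kept its call in all 18 alternatives. The calls of the other non-elongase genes, hpo-8 and art-1, were lost in 1 and 5 of the 18. The elongase genes elo-2, elo-5 and elo-6 were called lower at day 6 against day 1 and again at day 12 against day 6, for elo-2 with log2 differences of -1.21 ± 0.21 (limma adjusted p = 0.014) and -1.38 ± 0.24 (adjusted p = 0.00409). The calls of these 3 at day 12 against day 6 were kept in all 18 alternatives, but those at day 6 against day 1 were all lost without day 6 replicate 1 or without day 6 replicate 3, and that of elo-6 also without day 1 replicate 3. For elo-6, whose enzyme makes branched-chain fatty acids, the second interval minus the first was -1.10 ± 0.24 (limma adjusted p = 0.0377). That call was lost in 9 of 17 alternatives, among them cyclic loess and each fit with an array left out but that without day 1 replicate 3 (adjusted p up to 0.155).

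Among 10 genes of precursor supply and electron donors, 0 were higher and 2 lower at day 12 against day 1 (median -0.31), beside the 21.4% and 10% of brighter probes. These were acly-1, which encodes an ATP citrate lyase (-0.68 ± 0.18; limma adjusted p = 0.0284), and the isocitrate dehydrogenase gene idh-1, an NADPH source (-0.93 ± 0.17; adjusted p = 0.00359). The idh-1 call was kept in all 18 alternatives, and that of acly-1 was lost in 5, among them those without day 1 replicate 1, day 1 replicate 3 or day 12 replicate 2. The cytochrome b5 genes cytb-5.1 and cytb-5.2, whose products can pass electrons to desaturases, are given for that role and had differences of -0.45 ± 0.26 and 0.57 ± 0.19 and were not called (adjusted p = 0.339 and 0.0823), though cytb-5.2 was in 2 of 18 alternatives.

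Of 25 measured regulators, 5 were higher and 4 lower at day 12 against day 1 (median 0.23). These are 20% and 16% of the list, where 21.4% and 10% of the brighter probes were called. The nuclear receptor gene nhr-80, known to be needed for full delta-9 desaturase expression, was named for its role after its values were seen. It had 5.45, 5.15 and 5.82 at day 1, 4.84, 5.2 and 4.94 at day 6, and 4.37 and 4.62 at day 12. It was lower at day 12 than at day 1 by 1.97-fold (log2 difference -0.98 ± 0.21; limma adjusted p = 0.0108), a call lost without day 12 replicate 1 (adjusted p = 0.0957). The nuclear receptor gene nhr-49, the Mediator subunit gene mdt-15 and the SCAP homologue scp-1 are likewise named for their roles after their values were seen. Their differences were 0.48 ± 0.19 (limma adjusted p = 0.144), -0.02 ± 0.17 (0.959) and -0.15 ± 0.16 (0.647) in this order. They were not called, but nhr-49 was without day 1 replicate 3 (adjusted p = 0.0415). Also not called were the list's nuclear receptor genes nhr-13 (-0.10 ± 0.21; limma adjusted p = 0.842), nhr-66 (-0.15 ± 0.17; 0.678) and nhr-64 (0.80 ± 0.28; 0.0957). The genes sams-1, which makes the methyl donor, and pmt-2, a methyltransferase of phosphatidylcholine synthesis, were called lower in all 3 comparisons and in all 18 alternatives of each. Low phosphatidylcholine is known to activate SBP-1, but neither the lipid nor SBP-1 activity was measured here. Of the list's other phosphatidylcholine synthesis genes, pmt-1 was also lower at day 12 against day 1 (-1.25 ± 0.18; limma adjusted p = 0.000935). The pcyt-1 gene was not called (0.29 ± 0.18; adjusted p = 0.3975). The sams-1 signal averaged 8.19 at day 1, 6.84 at day 6 and 5.76 at day 12, and pmt-2 averaged 8.82, 7.30 and 5.82. At day 12 against day 1 their log2 differences were -2.43 ± 0.20 and -3.0 ± 0.24 (limma adjusted p = 2.22e-05 and 2.19e-05). The largest rise in this list was that of nhr-25, a nuclear receptor gene of the epidermis that the hypodermis list also holds (3.19 ± 0.24; adjusted p = 1.35e-05).

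In triacylglycerol and phospholipid assembly, 0 of 12 were higher and 2 lower at day 12 against day 1 (median -0.22), beside 10% lower among the brighter probes, with the acyltransferase gene acl-1 at -1.70 ± 0.17 (limma adjusted p = 6.77e-05) and mboa-6 at -0.55 ± 0.15 (adjusted p = 0.029). The acl-1 call was kept in all 18 alternatives and that of mboa-6 was lost in 7. The count of 2 was 4 with quantile normalization, with cyclic loess and without day 1 replicate 1, and 1 with the arrays of the 2 days alone and in the fits without day 1 replicate 2 or 3, day 6 replicate 2 or either day 12 array. The diacylglycerol acyltransferase gene dgat-2, named after its values were seen, had 6.09, 6.85 and 7.54 at day 1, 5.25, 5.69 and 5.70 at day 6, and 5.57 and 5.98 at day 12. Its differences were not called, at day 6 against day 1 (-1.28 ± 0.31; adjusted p = 0.055) or at day 12 (-1.05 ± 0.35; 0.0815), but were in 8 and 3 of 18 alternatives.

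**Figure D5:**
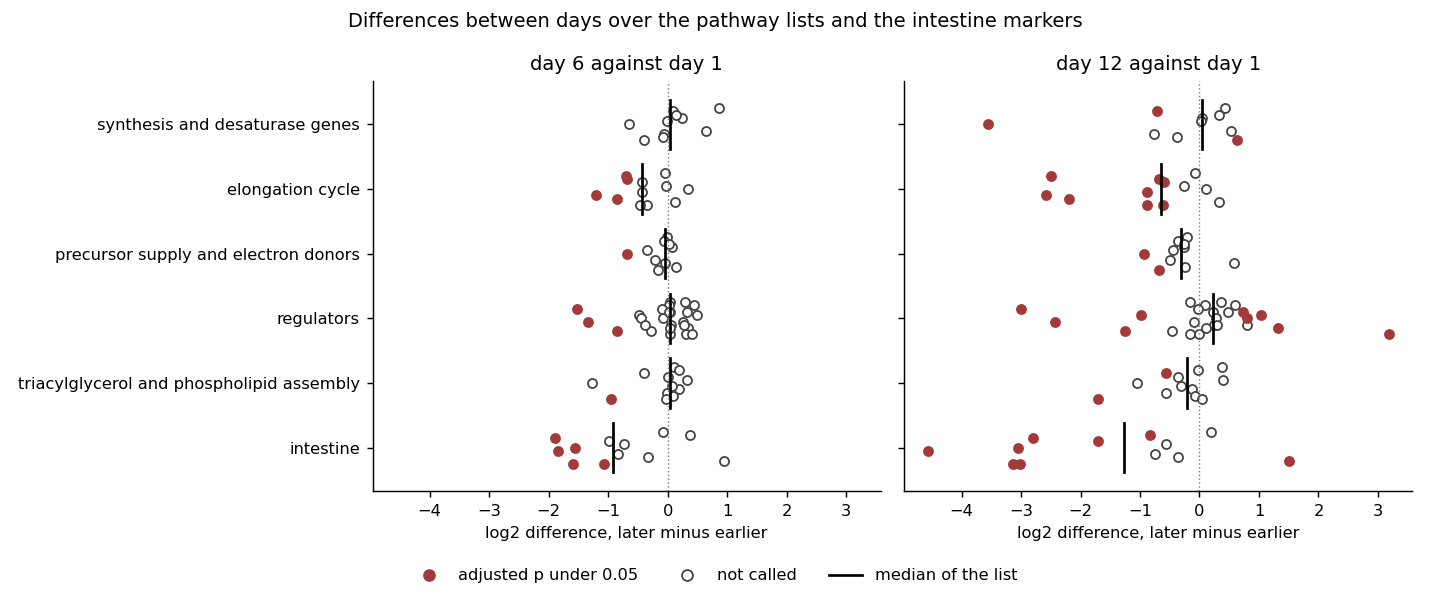
Log2 difference, later day minus earlier day (x axis), of every gene in the 10 genes described, 4 pathway lists and the intestine markers (y axis, with vertical jitter only), at day 6 and day 12 against day 1. Filled points have an adjusted p under 0.05 and a black line is the median, which is near 0 for the 10 genes and -0.65 for the elongation cycle and -1.28 for the intestine markers at day 12.

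Genes with the most similar profile were sought by Pearson's r over the 8 arrays among genes with a mean above 3 and a range of at least 1. The 8 arrays come from 3 days, so they are not independent points, and no p is given. The closest to fat-7 were C17H12.8 (r = 0.988), F44E7.5 (0.979) and the C-type lectin gene clec-223 (0.975). For fat-6 they were Y49E10.16 (0.982), C26B9.5 (0.973) and Y43C5A.2 (0.972), and for fasn-1 they were the filamin gene fln-2 (0.975), F09C8.2 (0.973) and mua-3 (0.970). The fat-2 gene was closest to Y116A8C.3 (0.982), fat-3 to bre-4 (0.967), fat-1 to F54D5.3 (0.966), fat-5 to fmo-3 (0.946), sbp-1 to ptp-3 (0.934), fat-4 to pmp-4 (0.931) and pod-2 to F56D12.10 (0.914).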

How the data were processed

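The authors deposited 1 table of 29317 probes over 8 arrays, whose values of 0.68 to 13.23 were taken for log2 signal from that range. Per the labels, total RNA was extracted with Trizol and labelled as biotinylated cRNA. Normalization, software and log base were not given in the sources used here, and no detection calls accompany the values. A probe table named 1 gene for 26281 probes, several for 480 and none for 2556, and the 26761 probes with a name were fitted with limma 3.58.1 under R 4.3.3 (eBayes, 1 mean per day, 5 residual and 5.07 prior degrees of freedom). Enzyme pairs were tested by exact permutation. Both tests were checked on simulated data, the permutation test with equal spread on all days. The fat-7 minus fat-6 difference had SDs of 0.96, 0.16 and 1.26 at days 1, 6 and 12, so that check does not cover it. The number of arrays limits the precision.

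The 10 genes, the lists and the tests were chosen with earlier results of these data known. All 10 genes were to be named, and per list and comparison at most 4 called genes by size of difference; genes outside this rule were named for their role after their values were seen. Alternatives were the prior, 3 normalizations, a filter on dim probes, all probes, array weights, the mean of a gene's probes, the arrays of 2 days alone, the replicate number as a block and each array left out. Planned counts of promoter motifs and protein comparisons were not run, as the sequences were not used here.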

Additional observations from a re-analysis of the deposited data

How the results depend on the processing

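No difference of the 10 genes that was called in any fit turned its sign. The number of the 10 called higher at day 12 against day 1, 1 in the report, was 0 with quantile normalization, cyclic loess, array weights, the replicate block or the arrays of the 2 days alone, and 0 to 1 with an array left out. The number lower, 2, was 1 with the replicate block or the arrays of the 2 days alone, and 1 to 3 with an array left out. At day 6 against day 1 the number higher, 0, was 1 with the trended and robust prior, the filter on dim probes or the replicate block, and 0 to 2 with an array left out. At day 12 against day 6 the number lower, 2, was 1 with the trended and robust prior or the replicate block, and 0 to 2 with an array left out. In the contrast of the 2 intervals 0 to 1 were higher and 0 to 1 lower with an array left out. Deviations of same-numbered arrays from their day means correlated at -0.19 to 0.21, and only 1 of 7 pairs was over 0.1. Deviations within a day sum to 0, and those of the 2 day 12 arrays mirror each other. These correlations therefore cannot tell whether replicate numbers pair the samples. The replicate block lost the calls of fasn-1 (adjusted p = 0.0688) and fat-6 (0.0781) at day 12 against day 1 and of fat-6 against day 6 (0.0644), and gave one to fat-3 at day 6 against day 1 (0.024). With the block, 5 elongation genes, 1 precursor gene and 1 assembly gene were lower at day 12 against day 1, and 0 elongation genes were called in the contrast of intervals.

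Over all probes, with an array left out, 1705 to 2435 were higher and 749 to 1279 lower at day 12 against day 1, 1004 to 1770 and 367 to 798 at day 12 against day 6, 167 to 528 and 114 to 409 at day 6 against day 1, and 262 to 623 and 160 to 380 in the contrast of intervals. The filter on dim probes gave 895 higher at day 6 against day 1. Adjusted p of the enzyme pairs with an array left out ranged from 0.0286 to 0.236 (fat-7 and fat-6), 0.0286 to 0.0571 (fat-7 and fat-5, and fasn-1 and pod-2) and 0.0286 to 0.0762 (fat-4 and fat-3), where fewer arrays also raise the smallest possible p. The 2 day 12 arrays limit every value at that age. Averaging a gene's probes cannot move the 10 genes' differences.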
